A study of Sorghum bicolor with 9 samples.

Results

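Gene expression in sorghum anthers that held microspores (stage A2) was compared with that in anthers at meiosis to the tetrad (stage A1). The study's text gives A2 as tetrad to microspore, so tetrads are named for both stages. The comparison took every locus that carried a sorghum gene ID and had 1 FPKM or more in A2 or in A1, where FPKM is the number of sequenced fragments scaled to transcript length and library depth. This gave 17419 of the 33115 loci with a gene ID, and the table lists 40082 loci in all. Whole anthers of the Sorghum bicolor variety M35-1 were taken from plants raised in an open field and sequenced with a stranded total RNA kit, with 3 libraries for A2, 3 for A1 and 3 for A3, the stage with pollen. The 3 libraries of a stage were combined by the authors into 1 FPKM value per locus, so no value has a replicate error, the number of fragments behind a locus is unknown, and no difference was tested. The labels give the tissue as male gametophyte, but the libraries held the whole organ, including the anther wall and the tapetum. By the labels, A2 and A1 each had 2 libraries of one sequencing project code and 1 of another, and the combined values cannot separate them. In such bulk samples, fewer cells of a type and less RNA per cell cannot be told apart.

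During meiosis in the anther, meiocytes pair and recombine their chromosomes and divide into tetrads of haploid cells, which are then released as microspores. The tapetum, the innermost layer of the anther wall, surrounds them and feeds them, and its cells make the lipid precursors of sporopollenin, the polymer of the outer pollen wall or exine. After microspore release the tapetum degenerates, and the microspores go on to fill with starch and to form the inner wall.

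Of the 17419 loci, 791 (4.54%) had A2 at 2 times A1 or more, called higher below, and 204 (1.17%) had A2 at 0.5 of A1 or less, called lower. Together these were 5.71% of the loci compared. All folds and log2 values were taken after adding 0.5 FPKM to both stages. Most loci stood close to equality, with 15245 (87.5%) within 1.5-fold either way and a median log2 of A2 over A1 of -0.04. The 5th and 95th percentiles of the log2 values were -0.54 and 0.91, so the upper tail reached farther than the lower one. At least 4-fold differences were found for 332 higher and 41 lower loci, and at least 16-fold differences for 44 higher and 3 lower loci. Among the 16248 loci at 1 FPKM or more in both stages, 368 (2.26%) were higher and 108 (0.665%) lower.

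**Figure D1:**
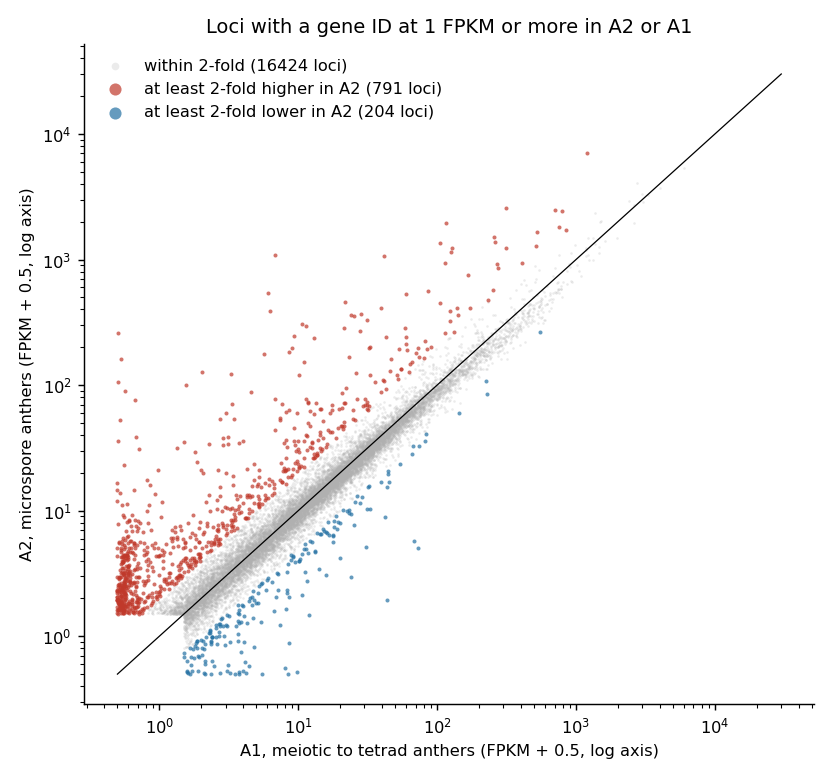
Each point is 1 of 17419 loci, with A2 on the vertical and A1 on the horizontal axis, both as FPKM + 0.5 on a log axis. The 16424 loci within 2-fold lie along the line of equality, the 791 higher loci spread above it over the whole range, with a dense column at the left where A1 was under 1 FPKM, and the 204 lower loci lie below it, nearly all under 100 FPKM.

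The loci that were higher in A2 included abundant ones. They held 10.95% of the summed FPKM of the compared loci in A2 and 2.50% of that in A1. The part of them above 100 FPKM in A2, 89 loci, held 9.45% of the sum in A2 and 2.12% in A1. The lower loci held less, with 0.222% of the sum in A2 and 0.608% in A1. The 4 of them above 100 FPKM in A1 held 0.204% of the sum in A1. By the median, both sets were at a low level. The higher loci had medians of 5.06 FPKM in A2 and 0.755 FPKM in A1, and the lower loci 1.28 and 4.71 FPKM.

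The stage markers were checked against the labels. The 5 meiocyte markers (DMC1, PAIR3, ZEP1, MSH4 and HEI10, which act in the pairing and recombination of chromosomes) summed to 144 FPKM in A2 and 186 FPKM in A1, and all 5 were lower in A2, none of them by 2-fold. The 5 tapetum markers (TDR, TIP2, CYP703A3, PKS2 and ABCG26) summed to 3441 FPKM in A2 and 1800 FPKM in A1. In A2, 3 of them were above their A1 value and 2 below it, and only CYP703A3 and PKS2 passed 2-fold. The 4 markers of mature pollen summed to 0.0793 FPKM in A2 and 0.124 FPKM in A1, and 3 of the 4 were listed at 0 in A2. Their sum in A3 was 214 FPKM. Meiocyte markers were thus still measured in A2 anthers, while those of mature pollen were at or near 0 in both stages.

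The largest differences belonged mostly to loci with no described function in the sources used here, which described few genes off chromosomes 1 and 2. Sobic.001G266900, on chromosome 1 from 50851942 to 50852821 (genome version v3.0.1, as are all positions here), had 258 FPKM in A2 and 0.00794 FPKM in A1, a log2 value of 8.99. Sobic.006G184000, on chromosome 6 from 53904469 to 53907381, had 162 FPKM in A2 and 0.0338 FPKM in A1. Sobic.007G154200, on chromosome 7 from 58728241 to 58729764, had 105 FPKM in A2 and 0.00567 FPKM in A1. These were the only 3 loci under 1 FPKM in A1 and above 100 FPKM in A2. All 3 were back under 1 FPKM in A3, with 0.388, 0.0832 and 0.0387 FPKM. Sobic.004G180301 differed from them in this, with 1096 FPKM in A2, 6.35 FPKM in A1 and a still higher 1577 FPKM in A3. Sobic.007G107500 had 545 FPKM in A2 and 5.60 FPKM in A1, and Sobic.002G402233 had 386 FPKM in A2 and 5.77 FPKM in A1. Both were under 1 FPKM in A3, at 0.101 and 0.0574 FPKM. A described gene stood among these top loci, Sobic.002G129800, which matches the lipid transfer protein LTPL62. It had 75.3 FPKM in A2 and 0.172 FPKM in A1, a log2 value of 6.82.

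**Figure D2:**
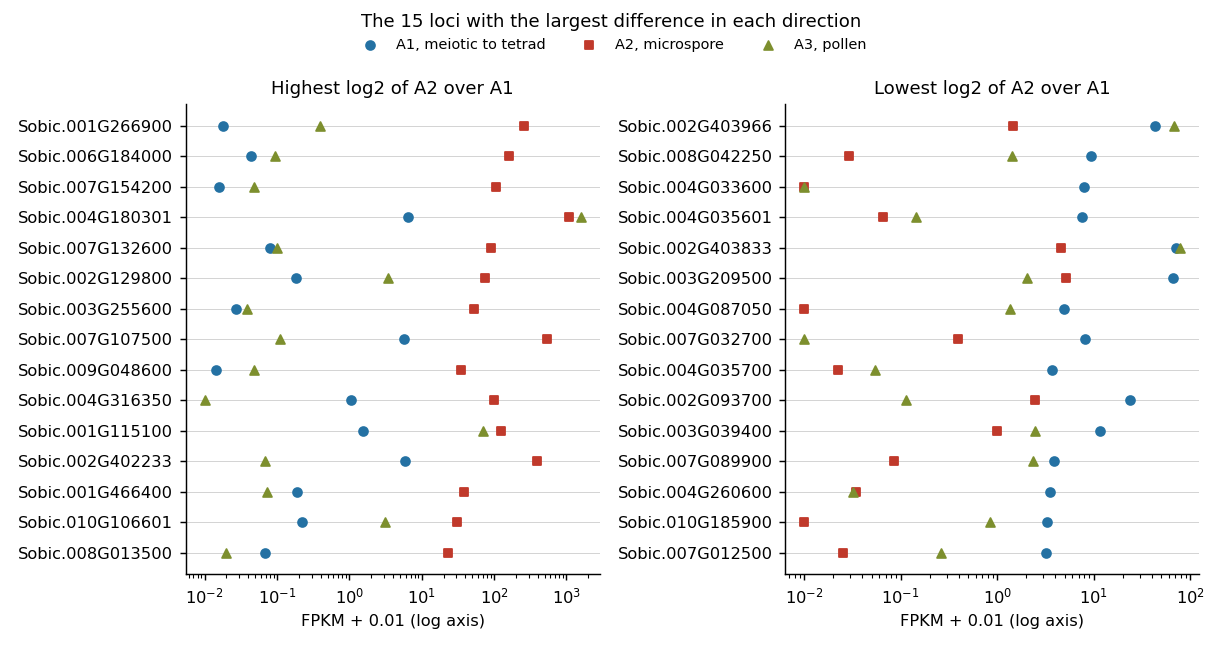
The left panel shows the 15 loci with the highest and the right panel the 15 with the lowest log2 of A2 over A1, with the FPKM + 0.01 of A1 (circles), A2 (squares) and A3 (triangles) on a log axis. In the left panel Sobic.004G180301 is the only locus with more FPKM in A3 than in A2, and in the right panel Sobic.002G403966 and Sobic.002G403833 have more FPKM in A3 than in A1.

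Among the lower loci, a neighbouring pair on chromosome 2 had its lowest values in A2. Sobic.002G403966 (75409680 to 75410689) had 1.43 FPKM in A2 and 42.8 FPKM in A1, a log2 value of -4.49, the lowest of all the loci compared. The neighbouring locus, Sobic.002G403833 (75398178 to 75399275), had 4.54 FPKM in A2 and 71.9 FPKM in A1. In A3 the pair stood at 68.1 and 79.3 FPKM, above the A1 values. Sobic.003G209500 on chromosome 3 had 5.19 FPKM in A2 and 67.2 FPKM in A1, and stayed low in A3 at 2.05 FPKM. A second pair, Sobic.004G033500 and Sobic.004G033600 on chromosome 4, was listed at 0 in A2, against 1.87 and 7.93 FPKM in A1. Both were also listed at 0 in A3.

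By the difference in FPKM rather than the fold, the largest gain was at Sobic.004G337132, a locus of only 159 bp on chromosome 4, with 7080 FPKM in A2, 1200 FPKM in A1 and 11271 FPKM in A3. FPKM of so short a locus depends on how its length was corrected, and the part of this in the value was not tested. A locus on chromosome 8 that joins Sobic.008G032400, Sobic.008G032500 and Sobic.008G032600 had 2560 FPKM in A2 and 312 FPKM in A1, and the FPKM cannot be divided among its 3 genes. Sobic.010G159500 had 1938 FPKM in A2 and 115 FPKM in A1. The largest losses of FPKM were small relative to the level: LTPL44 (Sobic.007G180700), a lipid transfer protein gene of the anther, had 5380 FPKM in A2 and 6025 FPKM in A1, and calreticulin (Sobic.002G090500), which helps secreted proteins to fold, had 1950 FPKM in A2 and 2624 FPKM in A1. Of the 10 largest losses, only Sobic.006G191800, with 264 FPKM in A2 and 549 FPKM in A1, passed 2-fold.

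Both directions were found on all 10 chromosomes. The share of higher loci ran between 3.68% on chromosome 9 (53 loci) and 7.32% on chromosome 5 (60 of 820 loci). The share of lower loci ran between 0.999% on chromosome 8 (9 loci) and 1.52% on chromosome 7 (18 loci). Higher loci outnumbered lower ones everywhere, by 2.89 times on chromosome 7 up to 6 times on chromosome 5. Chromosome 1 had 144 higher and 32 lower loci, chromosome 2 had 97 and 30, chromosome 3 had 120 and 26, and chromosome 4 had 82 and 26. Chromosome 6 had 66 higher and 19 lower loci, chromosome 8 had 44 and 9, and chromosome 10 had 72 and 17. The medians of all loci lay within a narrow band on all 10, from -0.05 on chromosome 9 to -0.01 on chromosome 8. A further 22 loci lay off the chromosomes, with 1 higher and 0 lower.

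Chromosome 5 had the highest share of higher loci and also the lowest expression. Only 34.4% of its loci with a gene ID reached 1 FPKM in A2 or A1, against 57.8% on chromosome 1, and the median of its compared loci was 6.78 FPKM in A2 and 6.67 FPKM in A1. Of its 60 higher loci, 40 (66.7%) were under 1 FPKM in A1. When only loci at 1 FPKM or more in both stages were taken, the share of higher loci on chromosome 5 was 2.70%, and the 10 chromosomes ranged from 1.60% (chromosome 8) to that value. On the same loci the share of lower loci ranged from 0.405% (chromosome 4) to 0.959% (chromosome 9). Of the compared loci above 100 FPKM in A2, 89 of 965 (9.22%) were higher. Chromosome 6 had the most for its number of such loci, with 17 of 90. Chromosome 4 had 14 of 113 and chromosome 1 had 18 of 181.

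**Figure D3:**
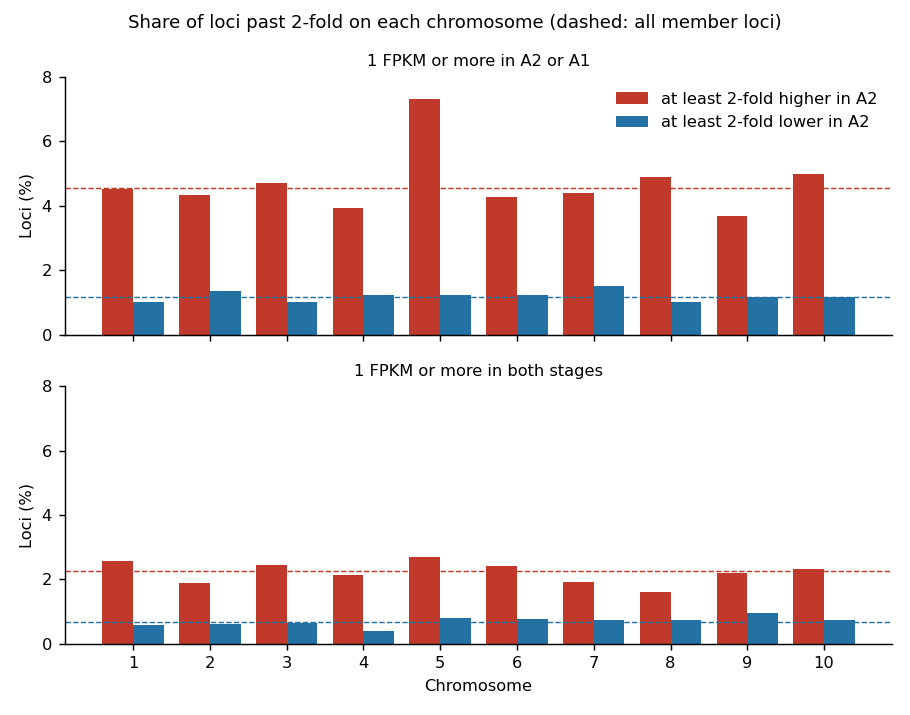
The bars give the percent of compared loci on each chromosome that were at least 2-fold higher (red) or lower (blue) in A2, for loci at 1 FPKM or more in A2 or A1 (upper panel) and in both stages (lower panel). The dashed lines are the shares over all compared loci, 4.54% and 1.17% above and 2.26% and 0.665% below, and the tall red bar of chromosome 5 in the upper panel (7.32%) is 2.70% in the lower one.

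Along the chromosomes the shares differed little. In the outermost 10% of the chromosome length at either end, 402 of 8211 loci (4.90%) were higher and 89 (1.08%) lower. In the innermost zone, 40% to 50% of the length away from the nearer end, 8 of 250 loci (3.20%) were higher and 4 (1.60%) lower. The loci past 2-fold were shorter than the rest, taking single genes whose interval no other locus shared. The median length was 1752.5 bp for the higher loci and 2157 bp for the lower loci, against 4488.5 bp for those within 2-fold. The full sets also differed in level, with a median in A2 of 5.06, 1.28 and 11.1 FPKM in that order. Lengths were not compared at matched FPKM or on loci at 1 FPKM or more in both stages.

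Higher loci lay next to each other more often than the share of all loci. Neighbours here are consecutive compared loci, so loci that were not compared may lie between them. The run of widest span covered 257742 bp. Among neighbouring loci with intervals that did not overlap, the next locus was also higher in 86 of 723 cases (11.9%), against 4.78% of all such neighbours. For lower loci this was 8 of 189 (4.23%), against 1.22%. The neighbours are not independent, because duplicated genes often lie side by side, so this is a description without a test. Of the 791 higher loci, 423 were included only through A2. The neighbour counts were not repeated on loci at 1 FPKM or more in both stages. Runs of 2 higher loci numbered 68, runs of 3 numbered 7 and runs of 4 numbered 3. All loci in the runs of 4 were under 1 FPKM in A1. A run of 4 on chromosome 2 (57757214 to 57835906) joined Sobic.002G191200, Sobic.002G191300, Sobic.002G191400 and Sobic.002G191900, which had 1.74, 1.84, 1.46 and 1.96 FPKM in A2, against 0.0600, 0.0398, 0.0161 and 0.0229 FPKM in A1. Sobic.002G191400 and Sobic.002G191900 match F-box proteins, which choose targets for ubiquitin-mediated degradation. The drought-induced lipid transfer protein gene DIL (Sobic.001G266600) had 357 FPKM in A2 and 24.8 FPKM in A1. Its neighbour among the compared loci was Sobic.001G266900, the locus with the largest log2 value, and the pair spanned 63708 bp. The only run of 3 lower loci was Sobic.004G035601, Sobic.004G035700 and Sobic.004G035750 on chromosome 4, with 0.0555, 0.0121 and 0.0280 FPKM in A2, against 7.55, 3.69 and 1.21 FPKM in A1. Sobic.004G035700 and Sobic.004G035750 share the same listed interval, where assigning fragments is uncertain.

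The 2-fold differences were spread unevenly over the abundance classes of A1. Of the 764 loci under 1 FPKM in A1, 423 (55.4%) were at least 2-fold higher in A2 and 0 lower, which follows from the choice of loci, since these were included only through their A2 value. In the class of 1 to 10 FPKM in A1, 223 of 7748 loci (2.88%) were higher and 135 (1.74%) lower. In the class above 10 and up to 100 FPKM, 115 of 7903 (1.46%) were higher and 65 (0.822%) lower. Above 100 FPKM, 30 of 1004 (2.99%) were higher and 4 (0.398%) lower. This highest class had a lower centre, with a median log2 of -0.20, against -0.07 in the class below and -0.01 in the class of 1 to 10 FPKM. Its 95th percentile was 0.61, against 0.45 and 0.75 in those classes. Its median stayed between -0.27 and -0.19 under each scaling and normalization tried. With the class above 100 FPKM set by A2 or by the mean of both stages, the median was -0.14 and -0.17.

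Classes set by A2 showed the mirror image of the selection. The 407 loci under 1 FPKM in A2 held 0 higher and 96 lower loci (23.6%). Above 100 FPKM in A2, 89 of 965 loci (9.22%) were higher and 2 (0.207%) lower. With classes set by the mean of both stages, which favours neither direction, 153 of 511 loci (29.9%) were higher and 32 (6.26%) lower under 1 FPKM. The choice of loci also shaped this class, since each of its loci had 1 stage at 1 FPKM or more and the other under it. The shares were 4.996% and 1.51% from 1 to 10 FPKM and 2.17% and 0.602% above 10 to 100 FPKM. Above 100 FPKM they were 6.83% and 0.402%. Higher loci outnumbered lower ones in all 4 mean classes, and their ratio was highest above 100 FPKM, at 17 times (68 higher and 4 lower loci).

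**Figure D4:**
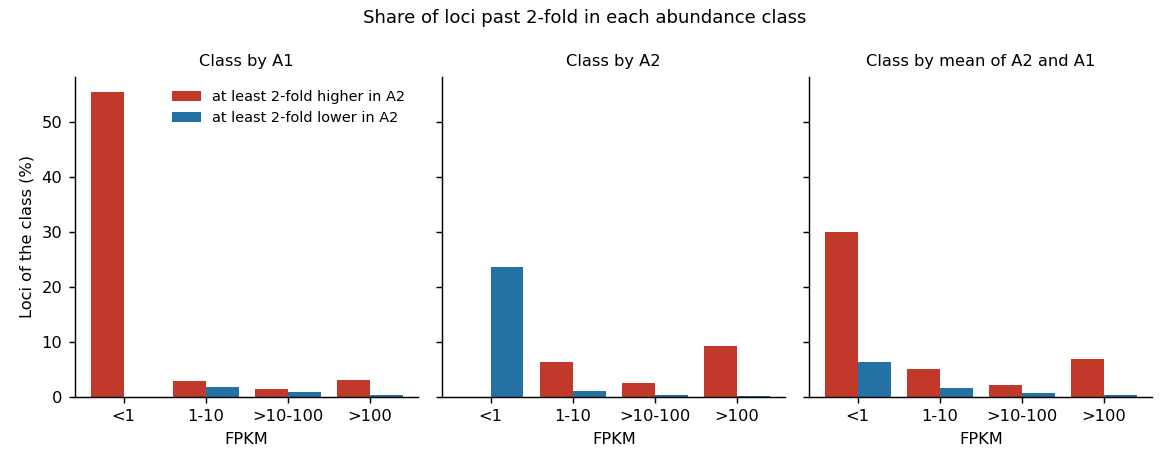
The bars give the percent of loci in each abundance class that were at least 2-fold higher (red) or lower (blue) in A2, with classes set by A1 (left), A2 (middle) or the mean of A2 and A1 (right). The 55.4% under 1 FPKM in A1 and the 23.6% under 1 FPKM in A2 are set by the choice of loci, which also shapes the mean class under 1 FPKM. With mean classes the higher share exceeds the lower one in all 4 classes.

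Crossing of class limits was mostly between adjacent classes. From under 1 FPKM in A1, 740 loci stood at 1 to 10 FPKM in A2, 21 above 10 to 100 FPKM and 3 above 100 FPKM. From 1 to 10 FPKM in A1, 11 loci stood above 100 FPKM in A2, and 406 were under 1 FPKM. Of the loci above 100 FPKM in A1, 857 of 1004 stayed in that class and 147 stood above 10 to 100 FPKM in A2. The only locus above 10 FPKM in A1 and under 1 FPKM in A2 was the small heat shock protein gene HSP18.2 (Sobic.003G039400), with 0.990 FPKM in A2 and 11.5 FPKM in A1.

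The chromosomes and the A1 classes were also crossed. Above 100 FPKM in A1, the median log2 was below 0 on all 10 chromosomes, from -0.25 on chromosome 2 to -0.09 on chromosome 5, where 0 of 26 loci were higher. Chromosome 4 had the most higher loci in this class, with 7 of 118 (5.93%). From 1 to 10 FPKM in A1, the share of higher loci ranged from 1.73% on chromosome 8 to 3.64% on chromosome 1. Above 10 to 100 FPKM it ranged from 0.759% on chromosome 7 to 2.10% on chromosome 10. In that class lower loci outnumbered higher ones on chromosome 2, with 9 higher and 11 lower, and on chromosome 7, with 4 higher and 5 lower.

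The third stage, which the choice of loci did not use, separated the higher loci by their level. Of the 791 higher loci, 376 (47.5%) were under 1 FPKM in A3 and 66 (8.34%) above 100 FPKM. Of all compared loci, 12.8% were under 1 FPKM in A3, but these were not matched in level. Of the 423 higher loci under 1 FPKM in A1, included only through A2, 287 (67.8%) were under 1 FPKM in A3. Of the 368 higher loci at 1 FPKM or more in A1, 89 (24.2%) were. The medians of the higher loci were 0.755 FPKM in A1, 5.06 FPKM in A2 and 1.29 FPKM in A3. Among the 89 higher loci above 100 FPKM in A2, 31 (34.8%) were under 1 FPKM in A3 and 32 (36.0%) above 100 FPKM. This group was thus split. Of all 965 compared loci above 100 FPKM in A2, 67 (6.94%) were under 1 FPKM in A3 and 597 (61.9%) above 100 FPKM. Of the 503 higher loci at 1 to 10 FPKM in A2, 293 (58.3%) were under 1 FPKM in A3. The share among all compared loci at that level was not counted. The 204 lower loci had medians of 4.71 FPKM in A1, 1.28 FPKM in A2 and 1.40 FPKM in A3, and 90 of them (44.1%) were under 1 FPKM in A3. In 53 of the 204 (25.98%), as in the pair on chromosome 2, A3 was above both A1 and A2, against 38.3% of all compared loci.

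The study's own candidate genes, sorted by function, stood on different sides of 0. These genes were chosen by the study on these samples, so their counts are not independent evidence of a direction. Of 12 pollen wall genes, all compared, 7 were at least 2-fold higher and 0 lower, with a median log2 of 1.23. Of 15 genes of crossover and repair, 13 were compared, with 0 higher and 1 lower. Their median was -0.39 and all 13 were below 0. XRCC3 (Sobic.004G181500), under 1 FPKM in both stages and so not compared, ran the other way. It had 0.710 FPKM in A2 and 0.147 FPKM in A1. The other gene left out, RPA1c (Sobic.009G012500), had 0.173 FPKM in A2 and 0.249 FPKM in A1. Of 6 genes of synapsis, chromosome axis and cohesion, 5 were compared and all 5 were below 0. Their median was -0.46 and none passed 2-fold. A ZEP1 gene (Sobic.001G415800) was left out, with 0.241 FPKM in A2 and 0.444 FPKM in A1. The signs of the 18 compared genes of these lists were the same under each scaling and normalization tried. In all, 55 of the 65 listed genes were compared, with 11 higher and 1 lower.

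Within the pollen wall list, enzymes of sporopollenin and cutin precursors led. NP1 (Sobic.001G320300, chromosome 1, 60794769 to 60804111), an oxidoreductase needed for the exine in rice, had 293 FPKM in A2 and 10.8 FPKM in A1, a 25.9-fold difference. It shares its listed interval with Sobic.001G320200, which had 9.39 FPKM in A2 and a log2 value of 0.22. The next gene, Sobic.001G320400 with a LysM domain, had 9.84 FPKM in A2 and 2.71 FPKM in A1. CYP704B2 (Sobic.001G491400), a fatty acid hydroxylase, had 1498 FPKM in A2 and 257 FPKM in A1. The acyl-CoA synthetase gene ACOS12 (Sobic.006G079500) had 386 FPKM in A2 and 122 FPKM in A1, and HTH1 (Sobic.006G185600), which acts on cutin monomers, 194 FPKM in A2 and 52.8 FPKM in A1. The polyketide synthase gene PKS2 (Sobic.002G115700) had 1820 FPKM in A2 and 759 FPKM in A1, a difference that fell below 2-fold after quantile normalization (log2 of 0.77). The transport genes of the list did not share this pattern: the lipid exporter ABCG26 (Sobic.001G207600) had 188 FPKM in A2 and 283 FPKM in A1, and the lipid transfer protein LTPL45 (Sobic.002G270400) 2006 FPKM in A2 and 1486 FPKM in A1, a log2 value of 0.43 that was -0.19 after quantile normalization.

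The 4 tapetum genes were mixed. AP25 (Sobic.001G478100), an aspartic protease of tapetum cell death in rice, had 17.2 FPKM in A2 and 4.31 FPKM in A1 and was the only one past 2-fold. TDR (Sobic.004G017500), a bHLH regulator of the tapetum, had 337 FPKM in A2 and 175 FPKM in A1. DTC1 (Sobic.008G008100), a regulator of tapetum cell death, was on the other side with 44.2 FPKM in A2 and 65.0 FPKM in A1.

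The genes of crossover, repair and synapsis compared here lay between -1.05 and -0.01 on the log2 scale. RPA2a (Sobic.004G355500), a subunit of the single-strand DNA binding protein RPA, was the only one past 2-fold, with 9.66 FPKM in A2 and 20.5 FPKM in A1. DMC1 (Sobic.008G010900), the meiotic strand exchange recombinase, had 8.05 FPKM in A2 and 15.7 FPKM in A1, and the axis gene PAIR3 (Sobic.004G063300) 31.1 FPKM in A2 and 51.2 FPKM in A1. HEI10 (Sobic.004G101500), which marks crossover sites, was nearly level with 45.9 FPKM in A2 and 49.2 FPKM in A1. The cyclin gene CycB1 (Sobic.003G328500), of entry into division, ran the other way with 131 FPKM in A2 and 74.2 FPKM in A1. It was one of 6 compared genes of meiotic regulation and cell cycle, of which 0 passed 2-fold, 4 were below 0 and 2 above. The other above 0 was MEL2 (Sobic.007G164101), with 2.27 FPKM in A2 and 2.26 FPKM in A1, which was below 0 after quantile normalization or with equal sums of FPKM.

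The remaining lists had few genes past 2-fold. Of the sugar list 2 of 4 genes were compared and 1 was higher, and of 5 stress genes 2 were higher, DIL and the drought-response MYB gene MID1 (Sobic.009G154200) with 6.84 FPKM in A2 and 3.15 FPKM in A1. MID1 lay at the limit, with a log2 value of 1.01. Of the late pollen list 4 of 8 genes were compared and 0 passed 2-fold, as did 0 of the 4 genes of anther wall and transcription, where the SBP transcription factor gene SPL8 (Sobic.010G215700) had 8.28 FPKM in A2 and 7.36 FPKM in A1.

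**Figure D5:**
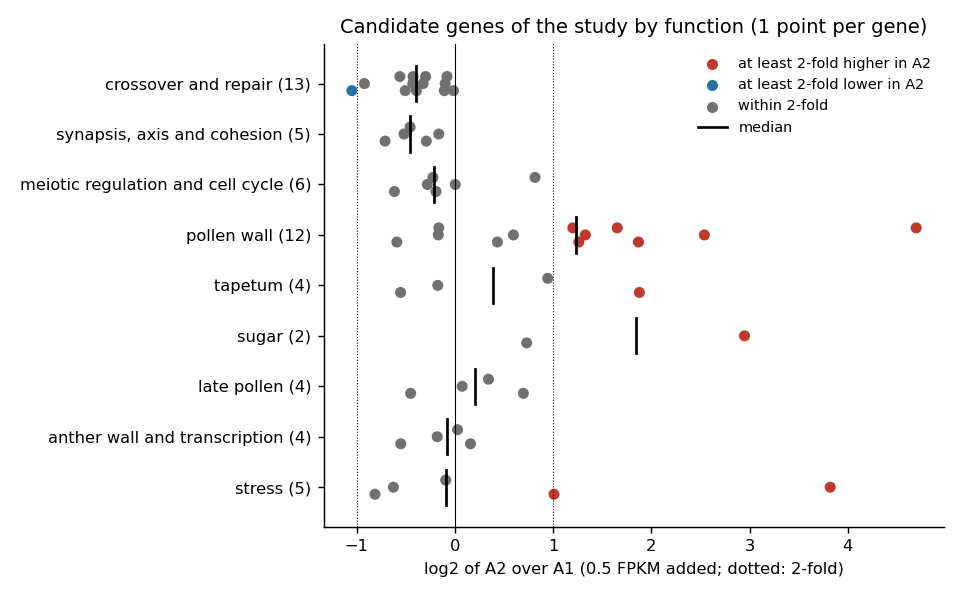
Each point is 1 candidate gene, placed by its log2 of A2 over A1, with the number of compared genes of each list in parentheses, the median as a bar and 2-fold as dotted lines. All points of the upper 2 lists lie left of 0, and 7 of the 12 pollen wall genes lie right of the 2-fold line, up to NP1 at 4.70.

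For the study's differentially expressed genes of chromosomes 1 and 2, pathway classes were also known. Those genes were picked by the study for differences among these samples, and 132 of the 1171 compared here (11.3%) were higher and 26 (2.22%) lower. In the class of DNA synthesis and repair, 0 of 34 passed 2-fold in either direction and the median log2 was -0.32. In the class of the cell (cycle, division and organisation), 1 of 33 was higher and the median was -0.18. Signalling had 1 higher and 1 lower of 49 genes, and lipid metabolism 0 higher and 1 lower of 24. The stress class had 6 higher and 2 lower of 31 genes. Higher shares were found for major carbohydrate metabolism, with 3 of 9 genes higher, and amino acid metabolism, with 5 of 17. Protein degradation, chosen here after the values were seen, had 11 higher and 1 lower of 59 genes.

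Sugar transport, also singled out after the values were seen, had 4 of 9 genes at least 2-fold higher and a median log2 of 0.98. The hexose transporter gene Sobic.002G338500 (matching sugar transporter 1) had 76.7 FPKM in A2 and 6.31 FPKM in A1. The sucrose transporter gene Sobic.001G488700 had 4.14 FPKM in A2 and 0.693 FPKM in A1. The other two match proteins that are not sugar carriers, an organic cation transporter (Sobic.002G339100, 35.3 FPKM in A2 and 8.82 FPKM in A1) and a cell wall protein precursor (Sobic.002G341700, 71.4 FPKM in A2 and 21.0 FPKM in A1). The carbohydrate genes were the cell wall invertase INV4 (Sobic.001G099700), which splits sucrose outside the cell, with 5.15 FPKM in A2 and 0.232 FPKM in A1, and 2 beta-amylase genes, which break down starch. Of these, Sobic.002G329500 had 196 FPKM in A2 and 72.7 FPKM in A1, and Sobic.001G372100 had 42.2 FPKM in A2 and 17.1 FPKM in A1. The second INV4 gene, Sobic.006G070032, had 1.34 FPKM in A2 and 0.607 FPKM in A1, far below its 176 FPKM in A3.

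Single described genes of other kinds were also higher. The subtilase gene Sobic.001G170700 had 53.5 FPKM in A2 and 2.22 FPKM in A1, and the aspartyl protease gene Sobic.002G325800 had 10.6 FPKM in A2 and 0.346 FPKM in A1. Both were under 1 FPKM in A3, at 0.0610 and 0.0154 FPKM. Rhamnogalacturonate lyase (RGL, Sobic.008G016500), an enzyme that cuts pectin, had 28.6 FPKM in A2 and 1.296 FPKM in A1. The GDSL lipase gene Sobic.002G346700 had 8.77 FPKM in A2 and 0.135 FPKM in A1.

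A pair of described genes was listed at 0 in A1, so no fold is given for either. The glutathione S-transferase gene Sobic.001G318700 had 14.03 FPKM in A2 and the late embryogenesis abundant gene Sobic.002G344400 had 11.3 FPKM. A second glutathione S-transferase gene on chromosome 1, Sobic.001G319500, was lower, with 0.196 FPKM in A2 and 1.41 FPKM in A1. In all the compared loci, 18 were listed at 0 in A1 and 6 in A2. A listed 0 does not show that the transcript was absent.

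Regulators and hormone genes were found on both sides. The gibberellin 20-oxidase gene Sobic.001G005300, of a late step in gibberellin synthesis, had 60.9 FPKM in A2 and 7.67 FPKM in A1. The gene Sobic.001G183100, matching MYB101, a pollen tube factor in Arabidopsis, had 31.9 FPKM in A2 and 7.83 FPKM in A1. Heat shock factor 4 (Sobic.002G225300) had 20.7 FPKM in A2 and 0.483 FPKM in A1, and the SPX domain gene Sobic.001G259100, of a family that senses phosphate status, 70.4 FPKM in A2 and 2.85 FPKM in A1. The phosphate transporter gene Sobic.001G502100 was higher as well, with 32.9 FPKM in A2 and 8.98 FPKM in A1.

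Genes related to jasmonate, a hormone required for stamen maturation in Arabidopsis, split between the directions. Allene oxide synthase (Sobic.001G449700), an early enzyme of jasmonate synthesis, had 6.10 FPKM in A2 and 15.7 FPKM in A1. The neighbouring genes Sobic.001G482700 and Sobic.001G482800 both match JAZ repressors of jasmonate response. Sobic.001G482700 had 8.51 FPKM in A2 and 18.18 FPKM in A1, while Sobic.001G482800 had 68.4 FPKM in A2 and 30.8 FPKM in A1.

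Described genes were also found among the lower loci. Besides HSP18.2, a match to heat shock cognate protein 70-1 (Sobic.001G418600) had 0.181 FPKM in A2 and 1.44 FPKM in A1. The AMP-dependent synthetase gene Sobic.001G189300 had 0.121 FPKM in A2 and 3.63 FPKM in A1. The bHLH transcription factor gene Sobic.001G105000 had 9.71 FPKM in A2 and 22.6 FPKM in A1. The few lower loci above 100 FPKM in A1 were Sobic.006G191800, Sobic.003G088400 with 84.2 FPKM in A2 and 226 FPKM in A1, Sobic.007G000500 with 59.0 FPKM in A2 and 143 FPKM in A1, and the DUF538 domain gene Sobic.001G193400 with 107 FPKM in A2 and 223 FPKM in A1. Of the 995 loci past 2-fold, 105 higher and 24 lower ones had a description, and 686 higher and 180 lower ones had none in the sources used here. Of all 17419 compared loci, 1080 had a description, and the descriptions covered only genes that the study had picked.

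The limit of 1 FPKM split loci of nearly equal value. Sobic.004G250800, with 1.00 FPKM in A2 and 0.780 FPKM in A1, was just inside, and Sobic.003G023666, with 0.999 FPKM in A2 and 0.563 FPKM in A1, just outside. At the 2-fold limit, Sobic.004G117000 was counted as higher with 1.86 FPKM in A2 and 0.681 FPKM in A1, and Sobic.001G340700, with 8.12 FPKM in A2 and 3.81 FPKM in A1, was not.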

How the data were processed

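RNA of whole sorghum anthers was sequenced in 9 libraries, of which the 6 of A2 and A1 bear on the comparison and the 3 of A3 are given beside it. The authors trimmed and quality-filtered reads with AdapterRemoval, removed rRNA reads with Bowtie2 2.2.9, aligned the rest to the Phytozome sorghum genome with STAR, and ran StringTie 1.3.3b for assembly and cuffdiff for stage comparisons, whose calls were not used. The deposited FPKM values are 1 per locus and stage, on a linear scale, with the libraries already combined. Read counts per locus were not used here, so depth, replicate spread and tests were out of reach, and the planned analyses per library were not run.

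Loci with a gene ID and at least 1 FPKM in A2 or A1 were kept, 0.5 FPKM was added, and a fold of at least 2 was counted. Of the kept loci, 916 joined several gene IDs and 4980 shared their interval with another locus, where assigning fragments is uncertain. Deposited starts were raised by 1. Gene functions came from the study's candidate genes and from its annotation of 1594 differentially expressed genes of chromosomes 1 and 2, whose descriptions are Arabidopsis and rice matches. The reference annotation matched none of the gene IDs, and no sequence was at hand.

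Genes named in the text were the 15 top loci by log2 value on either side, the 15 among described genes, the 3 in each A1 class, the 10 with the largest FPKM difference, the first of each direction on each chromosome, the study's candidate genes and stage markers, and those nearest the 1 FPKM limit. Members of runs and further described genes past 2-fold were chosen after their values were seen, as were the pathway subclasses. The members and gene lists were chosen with earlier results of these data known. The analysis used Python 3.11.15, numpy 2.4.6, pandas 2.3.3 and matplotlib 3.10.9, and the counting of folds was tested on simulated data. Alternatives were pseudocounts of 0.1 and 1, expression minimums of 0.1 and 5 FPKM or none, a mean of at least 1 FPKM, median-of-ratios, quantile and equal-sum scaling, and loci with 1 gene ID. Loci at 1 FPKM or more in both stages and loci that share no interval were added after the data were seen.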

Additional observations from a re-analysis of the deposited data

Results flagged for a closer look

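Assembled loci without a gene ID took no part in the comparison but also showed differences between the stages. Of 2339 such loci at 1 FPKM or more in A2 or A1, 281 (12.0%) were higher and 89 (3.81%) lower in A2 by 2-fold or more. They were drawn to attention only because they lie outside the main measurement, and their differences were not tested. Their median level was low, 2.15 FPKM in A2 and 1.84 FPKM in A1. The 3 with the largest log2 values lay on chromosomes 4, 10 and 8. The one on chromosome 4 (66460857 to 66462333) had 170 FPKM in A2 and 3.70 FPKM in A1. That on chromosome 10 (59637947 to 59638164) had 362 FPKM in A2 and 13.9 FPKM in A1, and that on chromosome 8 (33938421 to 33938659) had 243 FPKM in A2 and 10.1 FPKM in A1. The locus on chromosome 10 begins beside Sobic.010G259400, itself at 122 FPKM in A2 and 2.80 FPKM in A1. The largest difference was on an unplaced scaffold, where a locus was listed at 0 FPKM in A2 and had 3200 FPKM in A1 and 7060 FPKM in A3.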

How the results depend on the processing

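The excess of higher over lower loci was present under each alternative, with higher loci between 75.1% and 81.5% of those past 2-fold. Under 9 of the 10 alternatives other than the sets of loci added later, the counts were within 1.5 times of those reported, with 638 to 899 higher and 154 to 293 lower loci. With a minimum of 5 FPKM in A2 or A1, 400 loci were higher and 97 lower. Among loci at 1 FPKM or more in both stages, a choice made after the data were seen, 368 were higher and 108 lower. Fewer loci are compared in both cases. Any locus past 2-fold with 0.5 FPKM added must also be past it with 0.1 FPKM added. That overlap (791 and 204 shared) is therefore no check. With 1 FPKM added, 678 of the higher and 154 of the lower loci stayed past 2-fold. Quantile normalization kept 746 of the higher and 204 of the lower loci. The median log2 moved by at most 0.07 on the log2 scale, to -0.11 with equal sums of FPKM. Of 147 named genes, 85 were past 2-fold and none of these changed direction, while 9 of the 62 within 2-fold changed sign under quantile normalization or equal sums, LTPL45 among them. Under some alternative, 2 named genes fell below 2-fold and 3 passed it. MID1 (Sobic.009G154200) fell to 0.92 with 1 FPKM added, 0.96 after quantile normalization and 0.94 with equal sums. No paired analysis was possible because the deposited values combine the replicates of each stage, and leaving out single replicates was not run for the same reason. The precision of single values, above all at low FPKM and at short loci, is therefore unknown.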
